A study of Mus musculus with 2 samples.

Results

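Cytosolic ribosomal protein genes encode the protein subunits of the large (Rpl genes) and small (Rps genes) subunit of the ribosome outside mitochondria. They were taken here as the protein-coding genes of the GENCODE vM21 basic annotation whose symbol is Rpl or Rps followed by a digit, or Rplp0, Rplp1, Rplp2 or Rpsa, without the Rps6k kinases. The rule gave 92 genes among 21951 protein-coding genes, 57 with Rpl and 35 with Rps symbols. Of these, 77 are standard subunits, 9 are relatives or partners with a suffixed name such as Rpl22l1, Rps27l or the binding protein gene Rps19bp1, and 6 carry a pseudogene suffix although the annotation calls them protein-coding. An element belonged to such a gene when its midpoint had that gene's transcription start site (TSS) as the nearest protein-coding TSS within 100 kb. This took in 19 of 10531 listed elements, at 17 of the 92 genes, so 75 of the genes had no listed element.

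Ribosomal protein genes are transcribed at high rates in nearly every cell, and activated T cells raise ribosome production as they grow and divide. Their promoters are compact and often lack a canonical TATA box. Their transcripts begin with a run of pyrimidines, the 5′ terminal oligopyrimidine tract, through which the growth signal of mTORC1 controls translation. Sites for ETS, SP and YY1 factors are known features of these promoters in mammals.

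The measurement was STARR-seq, a self-transcribing reporter assay in which DNA fragments sit in the transcribed part of a reporter plasmid and are read out by their own RNA. The labels name 1 group of 2 biological replicates from a single donor record. The cells were naive CD4 T cells of mouse strain C57BL/6NJ, transiently transfected with the plasmids as episomes. Treatment lasted 3 days and combined interleukin-2 with anti-CD3e, anti-CD28, anti-interferon-gamma and anti-interleukin-4 antibodies, so no untreated or unstimulated cells were compared. The labels leave the age unknown and give no sex. For each element, 1 effect with its raw and adjusted p-value covers both replicates, and all of these are the authors' own values from their deposited table. The scale of the effect, its log base and the direction of its contrast are not given in the sources used here, so effects are printed as deposited and no fold is derived. Positive here means an effect above 0 and negative one below 0. No value per replicate or per input library was used here, so the depth is unknown and no error between replicates could be attached to any effect. The list holds no RNA level per gene, so the labelled cell type could not be checked against marker genes.

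The sequences below show the elements that the results turn on, on build mm10 (GRCm38.p6, strain C57BL/6J, from RefSeq), 5′ to 3′ on the strand of the ribosomal protein gene. The first set comes from elements at promoters, and gives the part of the element upstream of the gene's most 5′ annotated TSS, up to 300 bases. Capitals mark matches to an ETS core (CCGGAA), an SP core (GGGCGG) or a YY1 core (AAGATGG), on either strand. Rpl27 had the largest effect among the positive promoter elements, Rpl13a the smallest, and Rps20 had a negative promoter element beside a positive intronic one.
Rpl27, chr11:101442126-101442297, plus strand: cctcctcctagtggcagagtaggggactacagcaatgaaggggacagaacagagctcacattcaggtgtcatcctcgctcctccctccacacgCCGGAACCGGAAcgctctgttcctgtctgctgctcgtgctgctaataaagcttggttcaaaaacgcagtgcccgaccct
Rpl13a, chr7:45128762-45129061, minus strand: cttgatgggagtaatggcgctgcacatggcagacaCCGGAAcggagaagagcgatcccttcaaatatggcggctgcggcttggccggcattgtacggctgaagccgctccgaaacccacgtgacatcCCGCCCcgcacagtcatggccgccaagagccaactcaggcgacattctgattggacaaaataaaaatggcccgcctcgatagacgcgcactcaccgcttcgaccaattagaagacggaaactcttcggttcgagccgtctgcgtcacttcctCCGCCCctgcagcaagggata
Rps20, chr4:3835666-3835965, minus strand: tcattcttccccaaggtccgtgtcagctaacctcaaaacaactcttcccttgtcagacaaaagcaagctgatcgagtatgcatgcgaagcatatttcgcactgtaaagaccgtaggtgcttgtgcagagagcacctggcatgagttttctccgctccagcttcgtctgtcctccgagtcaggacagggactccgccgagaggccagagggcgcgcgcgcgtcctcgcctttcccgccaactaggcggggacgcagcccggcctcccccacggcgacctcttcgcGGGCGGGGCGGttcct

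The second set comes from elements away from promoters and from the intronic element of Rps20. The 2 longest are cut to their central 300 bases, and capitals mark an AP-1 core (TGANTCA, the site of FOS, JUN and BATF factors) or an ETS core.
Rpl3 distal, chr15:80061276-80061575, minus strand: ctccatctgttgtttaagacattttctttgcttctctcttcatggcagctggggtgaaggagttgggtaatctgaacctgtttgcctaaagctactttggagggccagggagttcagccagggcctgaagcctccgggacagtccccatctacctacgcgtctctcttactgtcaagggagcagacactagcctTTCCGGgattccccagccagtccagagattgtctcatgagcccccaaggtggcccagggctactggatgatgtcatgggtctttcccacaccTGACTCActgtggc
Rps21 distal, chr2:180248026-180248250, plus strand: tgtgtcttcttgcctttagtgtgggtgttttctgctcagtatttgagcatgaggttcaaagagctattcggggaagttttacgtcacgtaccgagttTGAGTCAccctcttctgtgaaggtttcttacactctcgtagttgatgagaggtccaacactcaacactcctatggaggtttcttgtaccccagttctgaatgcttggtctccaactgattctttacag
Rplp1 distal, chr9:61827726-61828025, minus strand: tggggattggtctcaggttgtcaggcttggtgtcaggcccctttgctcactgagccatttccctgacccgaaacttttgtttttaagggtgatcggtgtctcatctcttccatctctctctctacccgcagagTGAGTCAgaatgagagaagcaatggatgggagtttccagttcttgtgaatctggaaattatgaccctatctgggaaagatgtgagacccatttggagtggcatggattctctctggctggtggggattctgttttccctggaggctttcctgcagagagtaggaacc
Rps12 distal, chr10:23726301-23726350, minus strand: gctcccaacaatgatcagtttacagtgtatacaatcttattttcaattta
Rpl36a-ps1 distal, chr14:98896076-98896225, minus strand: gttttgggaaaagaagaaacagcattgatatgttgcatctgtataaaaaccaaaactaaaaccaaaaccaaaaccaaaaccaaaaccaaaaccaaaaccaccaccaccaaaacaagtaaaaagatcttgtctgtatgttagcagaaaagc
Rps20 intronic, chr4:3835001-3835050, minus strand: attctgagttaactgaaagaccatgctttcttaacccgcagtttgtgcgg

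Ribosomal protein loci held few listed elements. Of the 92 genes, 17 (18.5%) had at least 1 element, against 31.2% of all protein-coding genes. A positive element was assigned to 12 (13.04%), against 16% of all protein-coding genes. A negative element was assigned to 7 (7.61%), against 19.7%. At their own promoters, meaning an element with its midpoint within 1000 bp of the TSS, 12 of 92 genes (13.04%) had an element, against 20.4% of all protein-coding genes. A positive promoter element was listed for 6 (6.52%) against 3.42%, and a negative one for 7 (7.61%) against 17.2%. Rps20 counts in both directions. Genes with Rpl symbols made up 12 of the 17 genes with an element, out of 57, and genes with Rps symbols 5 of 35. Of the 77 standard subunits 16 had an element, of the 9 suffixed relatives and partners 0 had one, and of the 6 genes with a pseudogene suffix 1 had one. Being absent from the list does not show that a promoter was inactive, since only elements with an adjusted p of at most 0.01 are listed and which regions were tested is not known. The adjusted p-values fit a Benjamini-Hochberg adjustment over about 114722 tests, of which the 10531 listed elements are 9.18%.

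**Figure D1:**
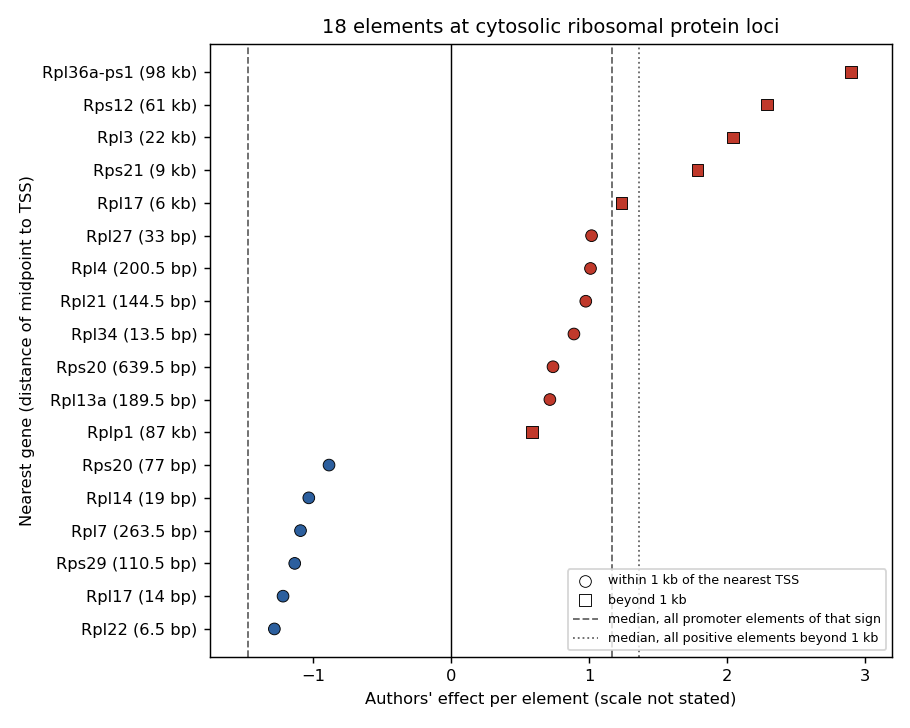
Authors' effect (horizontal axis, scale not stated) of 18 elements at ribosomal protein loci, named by nearest gene with the distance from the element's midpoint to its TSS. Circles lie within 1 kb of the TSS and squares beyond it, and dashed and dotted lines give the medians of all promoter elements of each sign and of all distal positive elements. The 6 negative elements plotted lie between -1.28 and -0.886 and are all circles, and the 6 squares are all positive, from 0.584 to 2.90.

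The 19 elements comprised 12 positive (63.2%) and 7 negative ones. Over all 9628 elements assigned to a protein-coding gene, 47.4% were positive. Promoter elements numbered 13 of 19 (68.4%), against 51.7% of all assigned elements. Among these 13, 6 were positive (46.2%), against 15.6% of the 4974 promoter elements of all protein-coding genes. The other 6 elements lay beyond 1000 bp of the TSS and were all positive, against 81.3% of all 4654 assigned elements beyond 1000 bp. With 13 and 6 elements, 1 element moves these shares by several percentage points, and no test was made of either difference.

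Positive promoter elements lay at genes of large subunit proteins, apart from a short one at Rps20. The element of Rpl27 (effect 1.02, the authors' adjusted p = 0.000152) spanned 575 bp on chromosome 11 (101442126 to 101442700), from position -320 to 254 relative to the nearest annotated TSS. Its upstream part carries a pair of adjoining ETS cores, shown above in capitals, and the whole element holds no SP core. The element of Rpl4, whose protein lines the nascent peptide exit tunnel, had an effect of 1.01 (the authors' adjusted p = 0.00018). It covered 450 bp on chromosome 9 (64173351 to 64173800), from position -24 to 425 relative to the TSS, so most of it lay within the first intron of Rpl4. Zwilch, a kinetochore gene, has a TSS within 1000 bp of that element's midpoint.

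Rpl21 and Rpl34 had effects close to those of Rpl27 and Rpl4. The Rpl21 element had 0.976 (the authors' adjusted p = 0.000136) on chromosome 5 (146832726 to 146833375) and the Rpl34 element 0.890 (the authors' adjusted p = 0.000698) on chromosome 3 (130729951 to 130730750). A long noncoding gene, Gm42997, starts within 1000 bp of the Rpl34 midpoint, and 291 bases of that element are its exon. Rpl13a encodes a large subunit protein that also takes part in translational silencing after interferon-gamma in myeloid cells. Its element had 0.716 (the authors' adjusted p = 0.00662) on chromosome 7 (45128676 to 45129225), from position -464 to 85 relative to the nearest TSS. The midpoint of that element also lies in an intron of the protein-coding model Gm45713.

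Negative promoter elements were listed at 4 large and 3 small subunit genes. The most negative was at Rpl22, a large subunit gene whose loss in mice impairs the development of alpha-beta T cells, with an effect of -1.28 (the authors' adjusted p = 0.000458). It spanned 1000 bp on chromosome 4 (152325376 to 152326375), centred 6.5 bp from the TSS. Rpl17, another exit tunnel protein, followed with -1.22 (the authors' adjusted p = 8.25e-05, chromosome 18, 75000151 to 75000775). Rps29 had -1.13 (the authors' adjusted p = 0.00134, chromosome 12, 69158626 to 69159525), and 231 bases of its element are the gene Rn7s1, an RNA of the signal recognition particle. These 3 elements each cover the TSS.

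Rpl7 and Rpl14 had negative elements with effects nearer to 0. Rpl7 had -1.09 (the authors' adjusted p = 0.0026, chromosome 1, 16104601 to 16105250) and shares its promoter region with Rdh10, a retinol dehydrogenase gene with a TSS within 1000 bp of the midpoint. Rpl14 had -1.03 (the authors' adjusted p = 0.000481, chromosome 9, 120571126 to 120571800).

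Rps20 carried neighbouring elements of opposite sign. The negative one, with -0.886 (the authors' adjusted p = 0.00277), covered 925 bp across the TSS (chromosome 4, 3835126 to 3836050). Overlapping SP cores lie 5 bases before the annotated TSS in the upstream sequence printed above. The positive one, with 0.739 (the authors' adjusted p = 0.00408), was 50 bp wide (3835001 to 3835050) and lay 75 bp further into the gene. It lies over the end of an intron, with 9 of its 50 bases in the following exon. Its GC content was 44.0%, against 63.0% in the negative neighbour. The small nucleolar RNA gene Gm24016 has its TSS within 1000 bp of both midpoints. When TSSs of all gene types competed, the positive element was no longer assigned to Rps20, which removes this pair and 1 of the 6 positive promoter elements. Rpl17 also had an element of each sign, but there 7425 bp separated them.

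**Figure D2:**
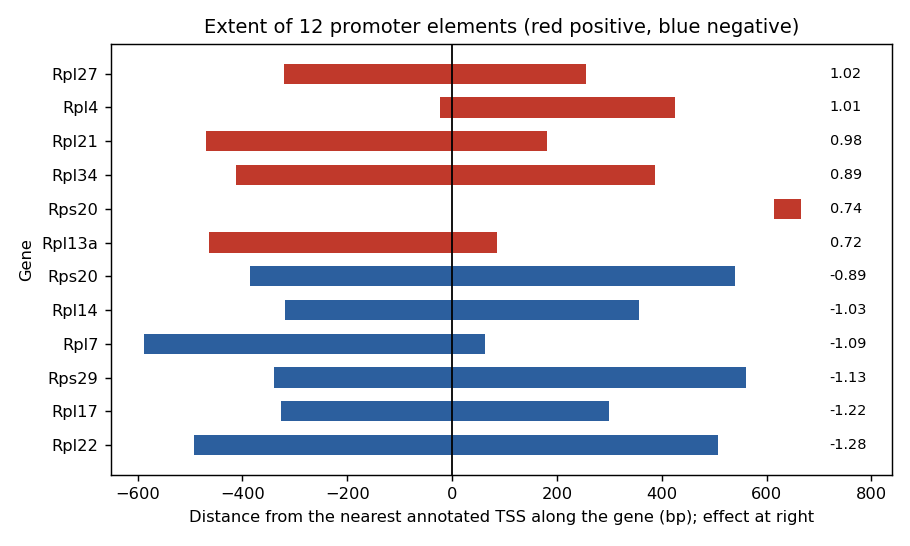
Extent of 12 promoter elements relative to the nearest annotated TSS (vertical line), in bp along the direction of transcription, ordered by effect, which is printed at the right. Red bars are positive and blue bars negative, and 11 of 12 cross the TSS, the exception being the 50 bp element in Rps20.

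The GC contents of the positive promoter elements were 62.8% at Rpl27, 55.6% at Rpl4, 63.1% at Rpl21, 63.4% at Rpl34 and 61.3% at Rpl13a. Those of negative ones were 62.7% at Rpl22, 57.4% at Rpl17, 62.4% at Rps29, 62.2% at Rpl7 and 64.7% at Rpl14. In size, the effects at ribosomal protein promoters were modest in both directions. All 13 promoter elements had an absolute effect below the median of all promoter elements of their sign. The positive ones ran from 0.716 to 1.02 with a median of 0.933, against a median of 1.17 over the 776 positive promoter elements of all genes. The negative ones ran from -1.28 to -0.886 with a median of -1.09, against -1.47 over 4198. Rpl27, the highest of the positive ones, exceeded 38.1% of all positive promoter elements, and Rpl22 was stronger than 35.2% of all negative ones.

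Positive and negative elements at ribosomal protein promoters had similar GC contents. The 6 positive promoter elements had a median GC content of 62.0% (44.0 to 63.4%) and the 7 negative ones 62.7% (57.4 to 65.6%), so the groups overlap. Over all genes the medians were 57.1% for positive and 68.0% for negative promoter elements. The density of CpG dinucleotides was 76.5 per kb at the median in the positive and 90.4 per kb in the negative elements at ribosomal protein genes, against 55.6 and 94.9 over all genes. Of the 13, 9 fell between 60 and 65% GC. Among these 9, 4 were positive, those of Rpl27, Rpl21, Rpl34 and Rpl13a. In the same GC range, 190 of 1048 promoter elements of all genes (18.1%) were positive. At 60 to 65% GC the median effects of all promoter elements were 1.05 and -1.23, nearer to the values 0.933 and -1.09 at ribosomal protein genes than the medians over all GC contents.

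**Figure D3:**
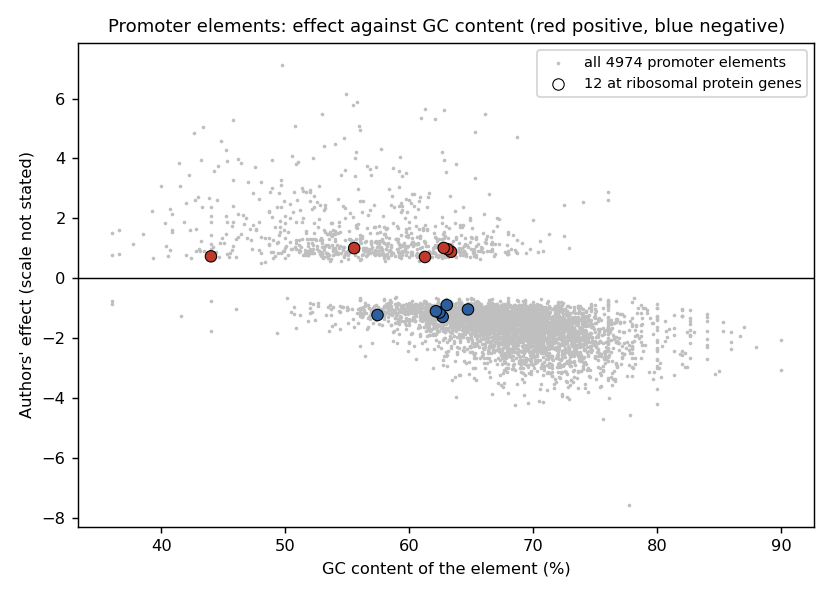
Authors' effect (vertical axis, scale not stated) against the GC content of the element in percent, for all 4974 promoter elements (grey) and 12 at ribosomal protein genes (red positive, blue negative). The 12 lie between 44.0 and 64.7% GC, with effects from 0.716 to 1.02 above 0 and from -1.28 to -0.886 below it, inside the grey cloud on either side.

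The promoters themselves, with or without a listed element, were of intermediate GC content. Over 300 bases at 1 TSS per gene, 250 before it and 50 from it on, the 92 genes had a median GC content of 55.3%, against 55.7% over 21851 protein-coding genes. The CpG density was 60 per kb against 40 per kb. The range was narrower at the GC-rich end, where 6 of 92 ribosomal protein promoters (6.52%) reached 65% GC, against 22.2% of all. The share of all protein-coding genes with a promoter element was 2.65% at 35 to 40% promoter GC, 6.69% at 40 to 45%, 9.77% at 45 to 50% and 11.7% at 50 to 55%. It was 15.5% at 55 to 60%, 23.6% at 60 to 65%, 35.0% at 65 to 70%, 51.9% at 70 to 75% and 71.3% at 75 to 80%. Ribosomal protein genes had a promoter element in 1 of 3 cases at 35 to 40%, in 0 of 5 at 40 to 45%, in 1 of 9 at 45 to 50%, in 4 of 25 at 50 to 55%, in 3 of 28 at 55 to 60% and in 3 of 15 at 60 to 65%. At 65 to 70% there were 5 genes and at 70 to 75% there was 1, and none of these had one. The median promoter GC was 55.3% in the 80 genes without a promoter element, 56.3% in the 5 with a positive one only and 53.8% in the 6 with a negative one only, and the ranges overlap.

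**Figure D4:**
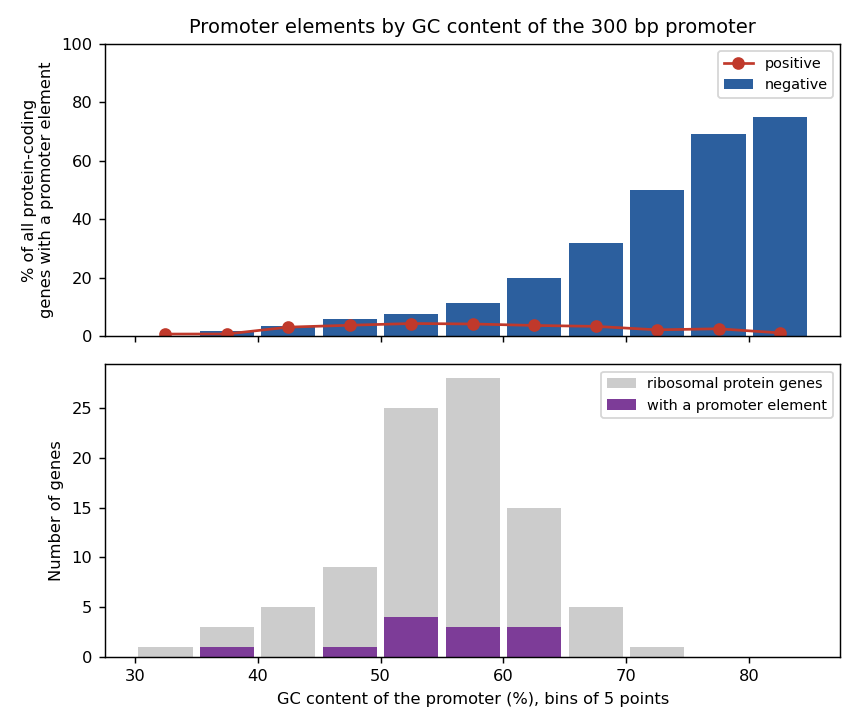
Upper panel: share of all protein-coding genes with a negative (bars) or positive (points and line) promoter element, in percent, by GC content of the 300 base promoter in bins of 5 percentage points. Lower panel: number of ribosomal protein genes in each bin (grey) and of those with a promoter element (purple). Most ribosomal protein genes lie between 50 and 65%, below the bins where negative elements are most frequent.

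Distal elements near ribosomal protein genes held the 4 largest absolute effects of the 19, at distances where another gene may equally be concerned. The element nearest to Rpl3, whose protein sits at the peptidyl transferase centre, had an effect of 2.05. The authors' adjusted p of 1.25e-09 for it was the lowest of the 19. It lay in intergenic sequence 21980.5 bp from the TSS (chromosome 15, 80061201 to 80061650) and holds an AP-1 and an ETS core, marked above. The element near Rps21 had 1.79 (the authors' adjusted p = 2.53e-06) and lay 9239 bp upstream of the TSS (chromosome 2, 180248026 to 180248250) with an AP-1 core near its middle. A 150 bp element 5907.5 bp upstream of Rpl17 (chromosome 18, 74992576 to 74992725) had 1.24 (the authors' adjusted p = 0.00266) and also holds an AP-1 core. Rpl17 has 2 annotated TSSs, 1919 bp apart. That distance is to the upstream one, and the negative promoter element of Rpl17 lies at the other. The element nearest to Rplp1, a protein of the ribosomal stalk, had the smallest absolute effect of the 19, with 0.584 (the authors' adjusted p = 0.00421), 86666.5 bp away (chromosome 9, 61827626 to 61828125). It too has an AP-1 core. The GC contents of these 4 elements, in the order given, were 55.1, 44.9, 44.7 and 47.6%.

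The largest effects rested on narrow elements far from their gene. The element assigned to Rpl36a-ps1 had 2.90 (the authors' adjusted p = 0.00612) over 150 bp, at a distance of 98167.5 bp and within an intron of the long noncoding gene Gm49018. Its GC content was 34.0%, and 64.7% of its bases are masked as repeats. The element assigned to Rps12 had 2.29 (the authors' adjusted p = 0.00479) over 50 bp, 60763.5 bp away, at 30.0% GC. The labels give a size range of 200 to 400. If these are fragment lengths in bp, the fragments were longer than these elements. The GC content and letters given here would then cover only part of each fragment. The same holds for the 50 bp element of Rps20 and the 150 bp one of Rpl17. Among the 6 distal elements, 4 exceeded 1.36, the median of all 3786 distal positive elements, and 2 did not. None of the 19 elements, promoter or distal, had another copy in the genome at 95% identity over 95% of its length. A stretch inside an element, such as the Rn7s1 bases at Rps29, was not searched for copies on its own.

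Elements assigned to a neighbouring gene also reached Rpl36al, which had none of its own, and Rpl3. The element of Mgat2 on chromosome 12 (69183726 to 69184850, effect -1.03, the authors' adjusted p = 0.00888) lies 205 bp from the TSS of Rpl36al and 131 bp from that of Mgat2, a glycosyltransferase gene. The element of Syngr1 (-1.52, chromosome 15, 80090801 to 80091725) overlaps the Rpl3 gene body 7857 bp from the Rpl3 TSS.

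Among 11 motifs searched on both strands, SP and ETS cores were the most frequent at ribosomal protein promoters. The 13 promoter elements held an SP core in 11 cases (84.6%), against 86.6% of all promoter elements. All 7 negative ones had one, and 4 of the 6 positive ones, those of Rpl4, Rpl21, Rpl34 and Rpl13a. An ETS core was present in 8 of 13 (61.5%), against 39.7% of all promoter elements, with 4 of 6 positive and 4 of 7 negative elements. A YY1 core was present in 4 of 13 (30.8%), against 13.03%, at Rpl4, Rpl21, Rpl13a and Rps29. An E-box (CACGTG, the site of MYC and USF factors) was present in 5 of 13 (38.5%) against 18.3%, and CCAAT in 4 of 13 (30.8%) against 46.5%. A RUNX core (TGTGGT) was present in 3 of 13 (23.1%) against 23.5%, and the AP-1 core in 2 (15.4%) against 11.1%. A cyclic AMP response element (TGACGTCA) and TATAAA were present in 1 each (7.69%), against 3.84% and 7.94%. Shares in whole elements depend on the stretch searched. Over all 19 elements, promoter and distal, a YY1 core was in 21.1% of whole elements and in 10.5% of their central 200 bp. For an ETS core these shares were 47.4% and 31.6%. The central 200 bp of other listed elements was not searched, so no share over all elements stands beside these. NRF1 (GCGCATGC) and the interferon response core GAAANTGAA matched none of the 13 promoter elements, against 6.09% and 3.54% of all promoter elements, and none of the 6 distal ones, against 1.004% and 12.3% of all distal positive elements.

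The same cores could be set beside all promoters of equal length, whether or not an element was listed. In the 300 base promoters, the ETS core was present in 37 of 92 ribosomal protein genes (40.2%), against 18.0% of all protein-coding genes. The YY1 core was present in 11 (11.96%) against 6.24%, and the SP core in 44 (47.8%) against 44.8%. CCAAT was present in 27 (29.3%) against 38.7%, and TATAAA in 9 (9.78%) against 12.5%. The AP-1 core was present in 6 (6.52%) against 6.69%. In the distal elements near these genes the AP-1 core was present in 4 of 6, those of Rpl3, Rps21, Rpl17 and Rplp1, against 39.7% of all distal positive elements. A match describes letters in a window, and binding was not measured.

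The pyrimidine tract was read at 1 annotated TSS per gene, as the longest run of C or T that covers the TSS or starts within 10 bp of it. A tract of at least 8 bases was found in 22 of 92 ribosomal protein genes (23.9%), against 9.42% of all protein-coding genes, and the medians were 5 and 4 bases. Annotated start sites can lie some bases from the start used in cells, so these counts depend on the annotation. Tracts of at least 8 bases were found in 19 of the 80 genes without a promoter element (23.75%). They were also found in 2 of the 5 with a positive one only, Rpl4 and Rpl27. Of the 6 with a negative one only, 1 had such a tract, Rpl22, and Rps20, with both, had none. The tract is in capitals in the 40 bases around the TSS, whose 21st base is the TSS, with Rps29 as a gene of a short one.
Rpl4, chr9:64173355-64173394, plus strand: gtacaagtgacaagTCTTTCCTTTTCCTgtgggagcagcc
Rpl27, chr11:101442278-101442317, plus strand: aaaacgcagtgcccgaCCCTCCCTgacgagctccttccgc
Rpl22, chr4:152325833-152325872, plus strand: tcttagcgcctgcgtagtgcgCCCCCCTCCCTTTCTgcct
Rps29, chr12:69159167-69159206, minus strand: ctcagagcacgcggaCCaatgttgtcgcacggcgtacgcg

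Other genes of ribosome production and its control were counted in the same way, in 4 lists. Of 3 genes of ribosomal proteins under other symbols, 1 had an element, Rack1, with an effect of 1.24 at 12384.5 bp. Of 16 genes, translation factors and others, listed because their transcripts carry a pyrimidine tract, 3 had an element, 1 a positive and 2 a negative one. The largest absolute effects there were -2.82 at the promoter of Nap1l1, a histone chaperone gene, -2.16 at 25742.5 bp from Tpt1 and 1.38 at 21789 bp from the elongation factor gene Eef1a1. Of 18 genes of ribosome assembly and ribosomal RNA synthesis, 3 had an element, 1 a positive and 3 a negative one. The transcription factor gene Myc had 1.62 at 51866 bp, and the promoters of Ubtf and Wdr12 had -1.38 and -1.26. Of 13 genes listed for mTORC1 and for kinases with an Rps6k symbol, 10 had an element, 5 a positive and 7 a negative one. Among those kinases, Rps6ka1, Rps6ka2 and Rps6ka3 had an element, and Rps6kb1 and Rps6kb2 had none. The kinase gene Rps6ka1 had 2.59 at 12403.5 bp and -2.52 at its promoter, and Larp1, whose protein binds the pyrimidine tract, had -2.25 at 936.5 bp. Against the 31.2% of all protein-coding genes with an element, the list of mTORC1 and Rps6k genes was at 76.9%. The list of pyrimidine tract genes was at 18.8% and the assembly genes were at 16.7%.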

How the data were processed

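STARR-seq was measured in 1 group of 2 biological replicates of activated mouse CD4 T cells. The authors deposited 1 element list that covers both replicates, made from alignments to mm10, per the file headers. The aligner and the element caller are not given in the sources used here. Each of the 10531 elements has a signed effect, which is a score of unstated scale deposited by the authors, and a deposited p-value and adjusted p-value. All listed adjusted p-values are at most 0.01, and element starts lie on a 25 bp grid. Depth and the spread between replicates are unknown, so no error could be computed and no test was run.

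Elements were assigned by midpoint to the nearest TSS of a protein-coding gene of GENCODE vM21 basic within 100 kb, and called promoter elements within 1000 bp. Promoters were the 300 bases at 1 TSS per gene, which 21851 of 21951 genes had. GC content, repeats and motifs were read from the RefSeq copy of GRCm38.p6 (C57BL/6J, while the cells were C57BL/6NJ). Exons and introns were read from GENCODE vM21 basic. Copies were searched with blastn 2.17.0 at 95% identity over 95% of the element. Python 3.11.15, pandas 2.3.3, NumPy 2.4.6, SciPy 1.17.1, pysam 0.24.0 and samtools 1.23.1 were used. The assignment to the nearest TSS and the Benjamini-Hochberg reading were tested on simulated data, and the motif counts were not. The members and lists were chosen with earlier results of these data known. Ribosomal protein genes with an element are named, except 1 whose element enters the counts and is not reported here, and at most 3 elements with the largest absolute effect are named from each other list. Alternatives changed the adjusted p threshold, the element width, the assignment, the TSS set, the gene set, the promoter window and the stretch searched for motifs.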

Additional observations from a re-analysis of the deposited data

How the results depend on the processing

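Of 85 values recomputed under alternatives, 79 stayed near the main value and 6 moved. Near means within 1.5 times the main count or, for shares and medians, within the 95% interval of the main value. With 19 elements those intervals are wide, so staying inside one shows little stability. No median effect could change sign, since positive and negative elements were separated before each median was taken. Leaving out elements with another copy removed 0 elements, so its values could only repeat the main ones. Using TSSs of protein-coding transcripts only also returned the same 19 elements. The values of both settings are among the 79. With an adjusted p limit of 0.001, the elements numbered 9 at 9 genes, 6 positive and 3 negative. The elements lost there include both of Rps20 and those of Rps12 and Rpl36a-ps1. Alternatives were computed for ribosomal protein loci only, so no share over all genes stands beside their counts. When TSSs of all gene types competed, 7 positive elements were left. The 5 that went to other genes were the distal ones of Rpl3, Rplp1, Rps12 and Rpl36a-ps1 and the intronic one of Rps20. In the central 200 bp of the 19 elements, against whole elements, the share with an ETS core was 31.6% against 47.4%, YY1 10.5% against 21.1%, E-box 15.8% against 26.3%, CCAAT 10.5% against 26.3%, RUNX 5.26% against 15.8%, AP-1 21.1% against 31.6%, SP 42.1% against 57.9% and the cyclic AMP response element 0% against 5.26%. Within 500 kb 3 elements were added, and by nearest edge 1, that of Rpl36al. No paired analysis was possible because the list holds 1 group and no value per replicate, which also prevents leaving out a replicate. Depth is unknown, so a gene with no listed element cannot be told apart from one measured too thinly.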
